A study of Mus musculus with 2 samples.

Results

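The cells described here are choroid plexus epithelial cells with at least 3 UMIs, summed, of Vat1l, Nefh, Cox8b, Frmpd4 and Pcp4 (a UMI, or unique molecular identifier, stands for 1 captured RNA molecule). They numbered 2731 of the 11312 barcodes that passed the limits of at least 1000 UMIs, at least 500 genes and at most 10% mitochondrial UMIs. A barcode counted as choroid plexus epithelium when Folr1, Kl, Clic6, Kcne2, Kcnj13 and Otx2 together had at least 8 UMIs and at least 0.1% of its UMIs, with at most 3 UMIs of the ependymal genes Tmem212 and Ccdc153 and at most 5 of Aqp4, Gja1, Mog and Cldn5, which mark other brain cells. In all, 2853 barcodes met this definition, so the 5-gene condition left out 122 of them. The selected cells are therefore nearly the whole choroid plexus epithelium of these libraries, less a low tail, and not a small subset of it.

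The study profiled dissociated whole brains of 6-month-old mice by droplet single-cell RNA sequencing, with 1 library per genotype. The Fit2-Mut library came from APP-KI mice carrying mutated Fit2, and the Fit2-WT library from APP-KI mice with wild-type Fit2. Both groups thus carry the APP knock-in, a model of Alzheimer's disease, and the series' design text places the Fit2 disruption in macrophages, so the choroid plexus epithelium is not the cell type in which the gene was targeted. The labels do not give the number of animals behind a library, the Cre line or the altered part of the gene. Without replicates, no difference between the libraries can be set against variation between animals, and no test was made. The intervals in brackets are 95% intervals, exact Poisson for levels, exact conditional for ratios of levels, Clopper-Pearson for shares of cells and a log-normal approximation for the ratio of shares, and they cover counting error only.

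The choroid plexus is a vascular fold in each brain ventricle whose epithelium secretes cerebrospinal fluid and forms the barrier between blood and that fluid. Its epithelial cells make large amounts of transthyretin (Ttr), a carrier of thyroid hormone and retinol, and move ions and water through transporters on both faces of the cell. The homeodomain factor Otx2 is needed for the tissue to form, and epithelia of different ventricles keep different sets of regional transcription factors.

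The 5 genes that chose the cells are not known as parts of 1 pathway. Vat1l (chromosome 8, 114205612 to 114374071, plus strand, GRCm38 and GENCODE M21) encodes a protein related to vesicle amine transport protein 1. Nefh (chromosome 11, 4938754 to 4948064, minus strand) encodes the heavy neurofilament chain of large axons. Cox8b (chromosome 7, 140898945 to 140900446, minus strand) encodes the form of cytochrome c oxidase subunit 8 that mouse heart and skeletal muscle use. Frmpd4 (chromosome X, 167471309 to 168577231, minus strand) encodes a scaffold protein of dendritic spines, and Pcp4 (chromosome 16, 96467606 to 96525793, plus strand) a small calmodulin-binding protein first described in cerebellar Purkinje cells. The sequences below are RefSeq's, build GRCm38.p6, for the 3 of these genes found in most of the cells, and show the stretch that ends 51 bases before each start that RefSeq annotates. For Vat1l that start lies downstream of the GENCODE start given above, so distances are counted from the RefSeq start. Capitals mark GGATTA, the core letters bound by OTX factors, searched on both strands. It occurs 1 time in the Vat1l window (chr8:114205390-114205589, plus strand), 79 bases before RefSeq's start, and not in those of Cox8b (chr7:140900497-140900696, minus strand) and Pcp4 (chr16:96467356-96467555, plus strand). Among all 32851 windows of the same 200-base length, 5.22% hold it, so these matches describe the letters only.
Vat1l: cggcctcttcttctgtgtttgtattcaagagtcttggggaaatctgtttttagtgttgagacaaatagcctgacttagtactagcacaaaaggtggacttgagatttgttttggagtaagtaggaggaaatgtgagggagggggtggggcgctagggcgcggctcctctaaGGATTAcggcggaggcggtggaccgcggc
Cox8b: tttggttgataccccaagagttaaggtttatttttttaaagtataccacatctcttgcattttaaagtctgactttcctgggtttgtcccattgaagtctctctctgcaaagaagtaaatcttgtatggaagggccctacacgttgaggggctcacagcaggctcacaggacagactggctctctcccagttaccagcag
Pcp4: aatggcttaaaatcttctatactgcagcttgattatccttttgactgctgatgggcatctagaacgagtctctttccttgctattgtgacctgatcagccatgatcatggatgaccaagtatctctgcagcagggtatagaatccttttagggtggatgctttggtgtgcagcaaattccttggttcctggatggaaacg

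The selected cells carried the markers of choroid plexus epithelium. Ttr was 23.01% of their UMIs in Fit2-Mut and 22.5% in Fit2-WT, against 0.569% and 0.479% in the barcodes that were not choroid plexus. Of the 15 choroid plexus markers, all 15 were at least 2-fold higher in the selected cells than in those other barcodes in both libraries, where 1429 of 15298 genes were (9.34%) and 8130 were at most 0.5-fold (53.1%). These 15 include the genes that chose the cells. Among those that did not were Prlr, the prolactin receptor, at 459 and 471 CPM against 13.9 and 13.4 CPM (CPM, UMIs per 1000000 UMIs of the summed cells), and Htr2c, a serotonin receptor, at 182 and 204 CPM against 6.83 and 4.48 CPM, each pair Fit2-Mut before Fit2-WT. Markers of neurons, to which Nefh is usually assigned, were low. The 10 neuron markers summed to 23.1 CPM in Fit2-Mut and 19.1 CPM in Fit2-WT, against 301 and 243 CPM in the other barcodes, and 3 of the 10 were at 0 in each library. Pcp2, Calb1 and the other Purkinje markers summed to 111 and 119 CPM, of which the calcium release channel gene Itpr1 alone had 109 and 116 CPM. Microglia and macrophage markers summed to 165 and 200 CPM against 5720 and 5572 CPM, and astrocyte markers to 291 and 300 CPM against 4067 and 4057 CPM. The 8 ependymal markers summed to 745 and 737 CPM against 668 and 653 CPM, but they were split. In both libraries 4 of the 8 were at most 0.5-fold, and the median log2 ratio was -1.35 and -1.46. At least 2-fold higher in the selected cells in both libraries were 3 of the 8, Dynlrb2, Rsph1 and Cfap126, which are cilium genes. Rsph1 had 293 and 289 CPM against 59.6 and 58.4 CPM. Tmem212 and Ccdc153, the ependymal genes limited by the choice, had at most 0.536 CPM in either library. No barcode of a selected cell occurred in both libraries, and 10 of all barcodes did. Scrublet called 19 selected cells of Fit2-Mut and 23 of Fit2-WT doublets, which were kept.

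The share of choroid plexus cells that met the 5-gene condition was 94.97% in Fit2-Mut, 1378 of 1451 cells (93.7 to 96.0%). In Fit2-WT it was 96.5%, 1353 of 1402 cells (95.4 to 97.4%). The share ratio of Fit2-Mut to Fit2-WT was 0.984 (0.969 to 0.999). With each cell thinned to 3000 UMIs, shallower cells left out and the condition lowered to 2 UMIs, it was 0.944. The summed 5 genes formed a single broad distribution with no gap at the condition. At 3 UMIs, just inside it, lay 49 and 30 cells, and at 2 UMIs, just outside, lay 29 and 25, with 17 and 4 cells at 0. The middle selected cell had 15 UMIs in Fit2-Mut and 18 in Fit2-WT, and 531 and 637 cells had 20 or more. Depth moved with the condition: the selected cells had a median of 10456 and 10573 UMIs and the 73 and 49 unselected ones 6676 and 6054. The part of depth in the split was not tested.

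**Figure D1:**
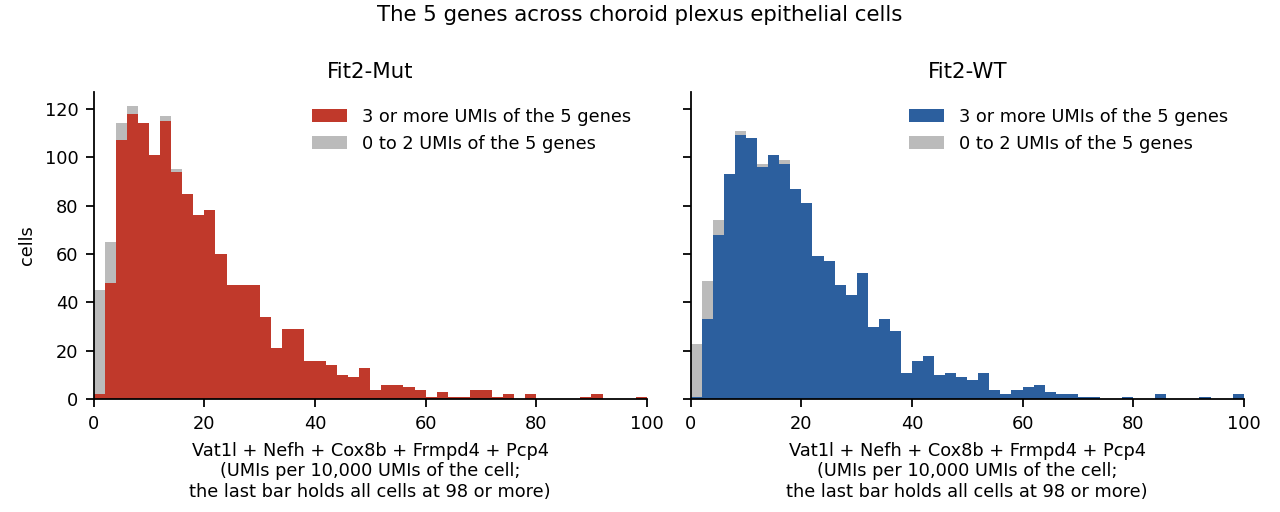
Number of choroid plexus epithelial cells (vertical axis) by summed UMIs of Vat1l, Nefh, Cox8b, Frmpd4 and Pcp4 per 10000 UMIs of the cell (horizontal axis), with Fit2-Mut on the left, Fit2-WT on the right, and the 73 and 49 cells with 0 to 2 UMIs of the genes in grey. Both libraries show 1 broad peak with a long right tail, and the grey cells sit at its left edge.

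The 5 genes differed widely in how many of the cells held them. These values chose the cells, so they are a description, and since 3′ UMI counts are not divided by transcript length they are compared only within a gene. Pcp4 had 1084 CPM (17653 UMIs) in selected cells of Fit2-Mut and 1114 CPM (18716 UMIs) in those of Fit2-WT. It was detected in 97.5% and 97.0% of them, and in 21.2% and 19.4% of microglia-marker barcodes, whose median depth was 10771 and 8640 UMIs. Vat1l had 213 and 206 CPM, with a UMI in 80.3% and 80.0% of the selected cells and in 0.439% and 0.681% of microglia-marker barcodes. Cox8b had 376 and 524 CPM, in 60.7% and 68.5% of cells, against 0.878% and 1.36% of microglia-marker barcodes. Frmpd4 had 50.7 and 51.3 CPM, in 38.5% and 37.2% of cells. Nefh had 44.2 and 47.8 CPM but was found in 16.5% and 16.1% of cells, with up to 24 and 27 UMIs in 1 cell and 12.1% and 13.9% of its UMIs in 5 cells. All 5 genes together were seen in 3.99% and 5.03% of selected cells, and 39.8% and 40.0% held 3 of the 5.

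Among the barcodes that passed the limits, the share of a gene's UMIs that lay in the selected cells, which were chosen on these genes, ran from 78.5% for Frmpd4 to 92.1% for Cox8b in Fit2-Mut, and from 81.5% for Frmpd4 to 92.6% for Cox8b in Fit2-WT. In barcodes with at least 8 UMIs of oligodendrocyte markers, the 5 genes summed to 4.03 and 5.39 CPM, against 1768 and 1944 CPM in the selected cells. Endothelial-marker barcodes had 19.0 and 5.83 CPM, astrocyte-marker barcodes 13.8 and 18.1 CPM and microglia-marker barcodes 33.5 and 35.2 CPM. Ependymal-marker barcodes, the nearest relatives of the choroid plexus among these, had 126 and 80.7 CPM, most of it in few cells: the 5 richest held 93.7% and 94.7% of the Pcp4 UMIs there. Unlike the other classes, this one was chosen on Tmem212 and Ccdc153 with no limit on choroid plexus markers.

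**Figure D2:**
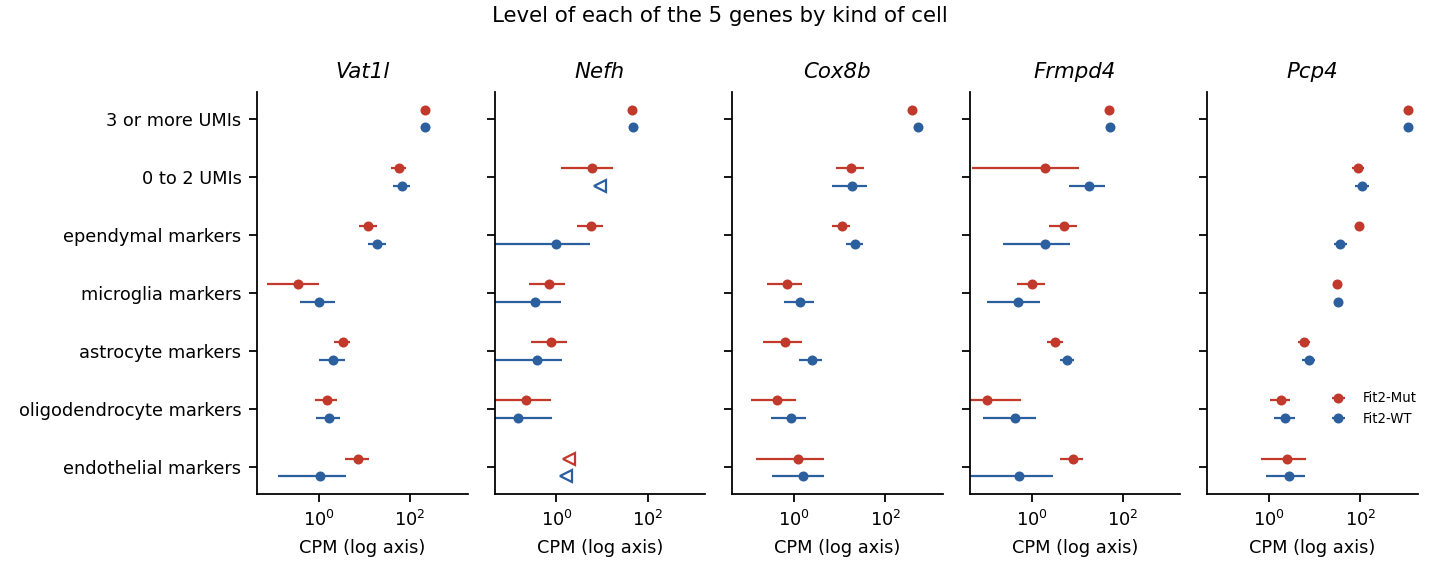
Level of each of the 5 genes in CPM on a log axis, by kind of cell, with Fit2-Mut (red) above Fit2-WT (blue); bars are exact 95% Poisson intervals of the summed counts, and an open triangle marks a class with no UMI at the level of 3 counts. The top row holds the selected cells, the second the unselected choroid plexus cells, and the lower rows barcodes with markers of other cells.

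Because the sum of the genes chose the cells, each gene was also measured with the choice made on the other 4. Nefh then still stood higher in cells with at least 3 UMIs of the others, at 44.1 against 11.8 CPM in Fit2-Mut (ratio 3.73, 1.70 to 10.2) and 47.8 against 2.91 CPM in Fit2-WT, where the lower value rests on 1 UMI (ratio 16.4, 2.94 to 650.2). Pcp4 was higher by 1.43 (1.38 to 1.49) and 1.21 (1.16 to 1.25), and Cox8b by 1.73 (1.48 to 2.03) and 1.23 (1.10 to 1.38). Frmpd4 was higher in Fit2-Mut, by 2.02 (1.20 to 3.72), while in Fit2-WT the ratio of 1.04 (0.653 to 1.76) spanned 1. Vat1l had 209 against 198 CPM in Fit2-Mut (ratio 1.06, 0.910 to 1.23) and 201 against 264 CPM in Fit2-WT (ratio 0.762, 0.650 to 0.899). Across the 1451 and 1402 choroid plexus cells, Pearson's r between any pair of the 5, on log-normalised counts that share each cell's depth, lay between 0.00 and 0.28, the highest being Vat1l with Frmpd4 at 0.28 and 0.23.

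The genes also had different company. Vat1l had r = 0.50 and 0.53 with Clic6, a chloride channel protein, 0.51 and 0.47 with the transcription factor gene Zbtb20, and 0.43 and 0.39 with the cation channel gene Trpm3, and -0.47 and -0.49 with Ttr. Frmpd4 had the same signs at smaller size, 0.30 and 0.22 with Clic6 and -0.28 and -0.20 with Ttr. Pcp4 had its highest positive values among those compared with Atp5g1, a subunit of ATP synthase, at 0.36 and 0.37, and with Chchd10, at 0.41 and 0.33. Not all mitochondrial genes stood so close to Pcp4: with Cox6c it had 0.19 and 0.20, against 0.30 and 0.19 with Clic6. With Ttr it had -0.35 and -0.27. Vat1l had 0.34 and 0.35 with Chchd10, so this gene did not set Pcp4 apart from Vat1l. Cox8b had 0.26 and 0.24 with Cox6c, another cytochrome c oxidase subunit, and Nefh had no value beyond 0.19 in size with these or with the rest of the 5. The 10 genes set against each of the 5 were in part picked after values had been seen, and r in sparse counts is pulled towards 0. Ttr is a large part of the cell total that scales all genes, which by itself lowers its r with them.

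Correlation with the sum of the 5 was taken for 10735 genes. Ribosomal protein, mitochondrially encoded, haemoglobin, some sex-linked and unnamed genes were then left out of the ranking. So were the 5 genes themselves and those that chose the epithelium. Of the rest, those whose level followed the sum most closely were, by the lower r of the libraries, Chchd10, Ndufv3, Elob, Mt3 and Gapdh. Chchd10, a protein of the mitochondrial intermembrane space, had r = 0.52 and 0.47, and Ndufv3, a subunit of respiratory complex I, 0.43 and 0.43. The most negative of the rest were Ttr at -0.52 in Fit2-Mut and the secreted peptide precursor Ecrg4 at -0.51. With them stood the BMP and Wnt inhibitor Sostdc1 at -0.48, the membrane glycoprotein Bsg at -0.47 and the IGF-binding protein Igfbp2 at -0.45. In Fit2-WT these were -0.49, -0.46, -0.43, -0.45 and -0.43, and the 5 negative genes were named after their values were seen. Depth moved with some of them: with the logarithm of the cell's UMIs, Ttr had r = 0.24 and 0.21, Chchd10 -0.01 and 0.01, and the sum of the 5 genes -0.13 and -0.09. The sum and each gene were divided by the same cell total. Ttr was 23.01% and 22.5% of the UMIs of the selected cells, which by itself lowers its r with the sum. The parts of depth and of this shared total in these correlations were not tested.

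Within the selected cells, the 25% richest in the 5 genes per UMI were set against the 25% poorest, 345 cells each in Fit2-Mut and 339 each in Fit2-WT. The richest cells had fewer transcripts of secreted proteins and of the endoplasmic reticulum that folds them, less mitochondrially encoded RNA and more transcripts of cilium genes. Ttr was 13.4% of UMIs in the richest cells of Fit2-Mut against 30.6% in the poorest, and 13.6% against 30.2% in Fit2-WT. This sort uses the same genes and cells as the choice, so it is a description. The UMI total that ranks the cells holds Ttr, so a cell with more Ttr ranks lower for that alone. The size of this part was not tested. Of 8082 genes, 2437 were at least 1.5-fold higher in the richest cells in both libraries (30.2%) and 726 at least 1.5-fold lower (8.98%). Since a large gene sets the scale of all others, the ratios were also taken with Ttr left out of the totals. This choice was made after seeing the data, and the 2 groups held the same cells, ranked with Ttr counted. It gave 572 of 8081 genes higher (7.08%) and 1021 lower (12.6%). Among cells of 8000 to 15000 UMIs alone, it was 1667 of 5309 (31.4%) and 476 (8.97%).

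Of 18 measured proteins secreted into the cerebrospinal fluid, 10 were at least 1.5-fold lower in the richest cells in both libraries, where 8.98% of all genes were. With Ttr out of the totals 13 of 17 were, where 12.6% of all genes were. Ecrg4 had 1445 CPM in the richest against 3432 CPM in the poorest cells of Fit2-Mut, and 1423 against 3264 CPM in Fit2-WT. Igfbp2 had 697 against 1693 CPM and 689 against 1615 CPM, and Sostdc1 441 against 1180 CPM and 458 against 1184 CPM. Of 18 endoplasmic reticulum chaperone and stress genes 13 were lower past 1.5-fold, among them Hspa5, the main chaperone of that compartment, at 595 against 1123 CPM in Fit2-Mut and 501 against 950 CPM in Fit2-WT. Of 7 class I antigen presentation genes 6 were, led by H2-D1 at 14.04 against 62.0 CPM and 14.3 against 64.3 CPM. The 13 mitochondrially encoded transcripts were lower in both libraries, 11 past 1.5-fold, and the median mitochondrial share of UMIs was 1.35% in the richest cells against 3.39% in the poorest in Fit2-Mut, and 1.10% against 2.86% in Fit2-WT. Microglia and macrophage markers moved with these groups, at 40.6 CPM in the richest against 288 CPM in the poorest cells of Fit2-Mut and 37.3 against 399 CPM in Fit2-WT, as did doublet calls, 1 against 8 cells and 1 against 11. Their part in these differences was not tested.

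Transporters of the epithelium split in the same sort. Of 18 ion and water transport genes, 16 were lower in the richest cells in both libraries and 6 past 1.5-fold, where 8.98% of all genes were. These 6 included Kcne2, a potassium channel subunit that was among the genes used to choose the epithelium, with ratios of 0.47 and 0.56. The chloride channel protein Clic6, with 751 against 351 CPM in Fit2-Mut and 680 against 362 CPM in Fit2-WT, and the carbonic anhydrase Car2, with 1245 against 705 CPM and 1192 against 674 CPM, were the 2 that were higher. The folate receptor Folr1 had 476 against 1076 CPM and 529 against 1089 CPM, while the factor Otx2 had 280 against 154 CPM and 293 against 164 CPM. All 12 nuclear-encoded cytochrome c oxidase subunits other than Cox8b were above 1 in both libraries. Past 1.5-fold, where 30.2% of all genes were, lay 2 of the 12, Cox5b (1.59 and 1.61) and Cox7a1, the muscle-type form of another subunit (1.82 and 2.14). With Ttr out of the totals 9 of the 12 were higher and 3 lower. Of 13 cilium genes, 11 were past 1.5-fold higher, where 30.2% of all genes were, and 4 with Ttr out, where 7.08% were. They included Foxj1, the master regulator of motile cilia, at 61.1 against 31.4 CPM and 51.1 against 26.0 CPM. Ependymal markers, Foxj1 among them, summed to 940 and 947 CPM in the richest cells against 590 and 576 CPM in the poorest, and their part in this was not tested. The median log2 ratio of all genes in this sort was 0.55 in Fit2-Mut and 0.51 in Fit2-WT, and 0.23 and 0.20 with Ttr out, so ratios near these values are those of the typical gene.

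**Figure D3:**
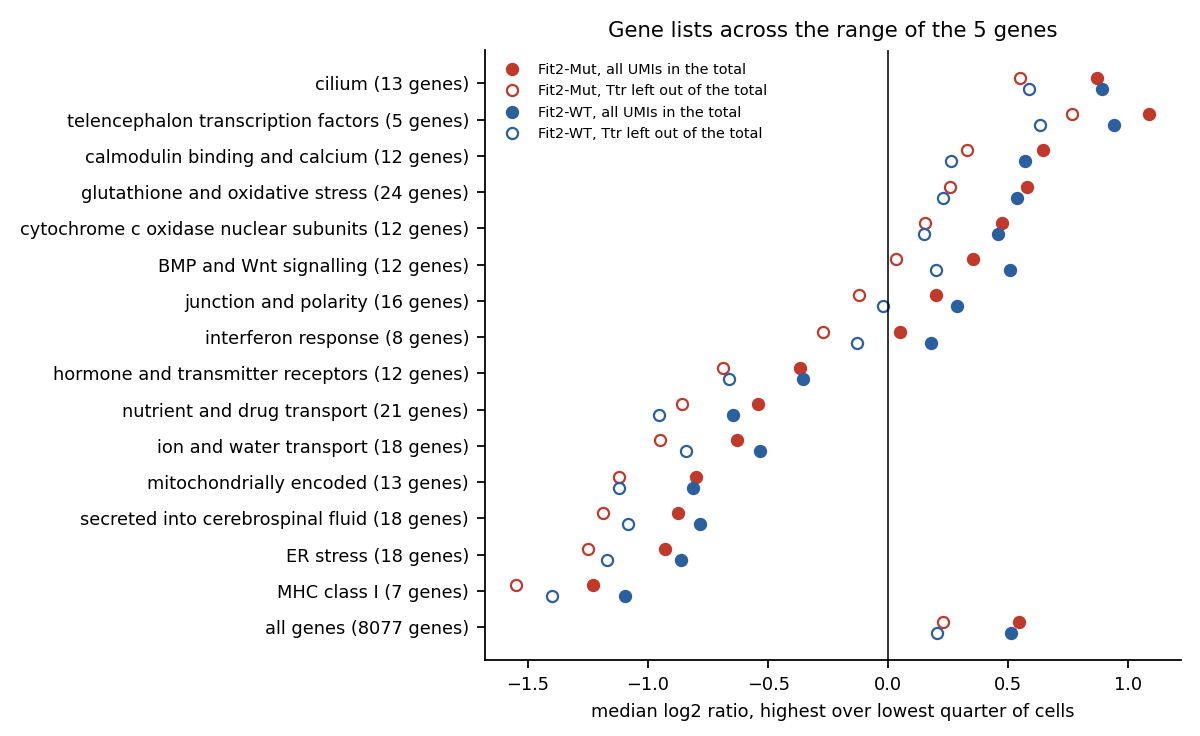
Median log2 ratio of the 25% of selected cells richest in the 5 genes over the poorest 25%, for each gene list and for all genes, with Fit2-Mut in red above Fit2-WT in blue; filled points use all UMIs as the total and open points leave Ttr out. Cilium and telencephalic factor lists lie to the right and the secreted, endoplasmic reticulum, mitochondrially encoded and class I lists to the left in both libraries under both totals.

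Against the 73 and 49 unselected choroid plexus cells, 540 of 9946 genes were at least 2-fold higher in the selected cells in both libraries (5.43%) and 63 were at most 0.5-fold (0.633%). The contrast is the one that chose the cells, and its smaller side held 501647 and 329259 UMIs, so nothing is read from these counts. The median log2 ratio of all genes was itself 0.46 in Fit2-Mut and 0.32 in Fit2-WT, and Ttr, which takes a large part of each total, had 230136 and 225463 CPM in the selected cells against 357470 and 319050 CPM in the unselected ones. Ratios near 1.5 are therefore close to that of the typical gene. The 15 genes named on each side are those whose intervals lay farthest from 1. On the higher side stood the splicing factor gene Sf3b2, at 279 and 268 CPM in the selected cells of Fit2-Mut and Fit2-WT against 128 and 115 CPM in the unselected ones. Caprin1, an RNA-binding protein of stress granules, had 128 and 138 CPM against 53.8 and 54.7 CPM. Top1, which encodes a topoisomerase, had 239 and 256 CPM against 108 and 131 CPM. Chchd10 had 3529 and 3566 CPM against 2115 and 2339 CPM, and the complex III subunit Uqcr10 1649 and 1731 CPM against 1074 and 1133 CPM. The other 10 named by the same rule were Sfr1, Fahd2a, Frmpd1os, Ubb, Ndufv3, Prr32, Ifi27, Dstn, Cdkn1c and Hist1h2bc, with ratios from 1.51 for Ubb to 4.94 for Fahd2a in Fit2-Mut.

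On the lower side, Sostdc1 had 821 and 845 CPM in the selected cells against 1655 and 1488 CPM in the unselected ones, Igfbp2 1207 and 1190 CPM against 2017 and 2005 CPM, and Spint2, a protease inhibitor, 467 and 442 CPM against 817 and 793 CPM. Sfrp1, a secreted Wnt antagonist, had ratios of 0.516 and 0.458, Wls, which carries Wnt proteins to the cell surface, 0.554 and 0.540, and Sparc, a matrix protein, 0.446 and 0.555. Cln3, Pou6f1, Malat1, Pqlc3, Arl6ip1, Steap1, Tspan3, Zeb2 and Aplp1 complete the 15. Of these Malat1, Pou6f1 and Zeb2 turned direction in 1 or both libraries under another setting.

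Regional transcription factors differed among themselves in the selected cells. Of 8 telencephalic factors, 4 were at least 2-fold higher than in the barcodes that were not choroid plexus in both libraries, where 9.34% of all genes were, and 2 were at most 0.5-fold, where 53.1% were. Lhx2, among the lower ones, had 0.184 and 0.179 CPM against 19.5 and 20.8 CPM. Six3, a factor of the anterior brain, had 58.0 CPM in Fit2-Mut and 58.0 CPM in Fit2-WT, against 7.56 and 7.86 CPM in the barcodes that were not choroid plexus. Dmrta2 had 24.4 and 27.4 CPM against 3.54 and 3.34 CPM, Emx1 15.4 and 16.3 CPM against 1.07 and 1.56 CPM, and Lmx1a, a roof plate factor, 17.6 and 14.9 CPM against 1.51 and 1.28 CPM. None of the 15 hindbrain Hox genes except Hoxb3os, an antisense transcript with 27 and 17 UMIs, had more than 3 UMIs in the selected cells of either library. They summed to 2.33 and 1.49 CPM, with 7 of the 15 at 0 in Fit2-Mut and 10 in Fit2-WT. Reads of Hoxb3os and of genes it overlaps cannot be told apart without stated strand use in the counting. In the richest against the poorest cells, 4 of 5 telencephalic factors were past 1.5-fold higher in both libraries, where 30.2% of all genes were. Among them were Lmx1a, which the list includes, and Six3, at 85.7 against 39.8 CPM in Fit2-Mut and 73.8 against 43.4 CPM in Fit2-WT. With Ttr out of the totals 2 of 5 were, where 7.08% of all genes were. Within the brain, cells of the different ventricles were not labelled, so the ventricle of any cell is not known.

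Between the genotypes, few genes of the selected cells differed by 1.5-fold or more. Of 11506 genes with at least 50 UMIs, 225 had at least 1.5 times the level in Fit2-Mut (1.96%) and 192 at most 1/1.5 of it (1.67%), where the median log2 ratio was -0.00 and the 5th and 95th percentiles were -0.36 and 0.38. Among the 5613 genes with at least 500 UMIs, 11 and 5 passed these folds. The 5 genes that chose the cells followed this: Vat1l, Frmpd4, Nefh and Pcp4 lay within 1.5-fold, at 213, 50.7, 44.2 and 1084 CPM in Fit2-Mut against 206, 51.3, 47.8 and 1114 CPM in Fit2-WT. Cox8b was lower in Fit2-Mut, at 376 against 524 CPM (ratio 0.717, 0.694 to 0.741), short of the 1.5-fold used here. It was also lower outside these cells, at 13.5 against 24.8 CPM in the barcodes that were not choroid plexus and 64.2 against 89.0 CPM in barcodes of 10 to 100 UMIs, which hold free RNA. Fitm2, the mouse gene of the Fit2 protein that partitions fat into lipid droplets, had 83 UMIs and 5.10 CPM in Fit2-Mut and 96 UMIs and 5.72 CPM in Fit2-WT (ratio 0.892, 0.657 to 1.21). A 3′ count can lie outside the altered part of the gene, so this does not check the mutation. App, the gene of the amyloid precursor protein that the knock-in alters in both groups, had 393 and 372 CPM.

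Among the genes named for the genotype difference, Rsrp1, Nsg1, Rtp4, Bmp4 and Gtsf1l had under 25% of their UMIs in 5 cells in both libraries. Rsrp1, which encodes an arginine- and serine-rich nuclear protein, had 309 CPM in Fit2-Mut against 150 CPM in Fit2-WT (ratio 2.06, 1.96 to 2.16), with a UMI in 89.0% against 71.6% of cells. In the barcodes that were not choroid plexus it had 454 against 394 CPM. Nsg1, which encodes an endosomal trafficking protein known from neurons, had 65.7 against 36.0 CPM (1.82, 1.65 to 2.02), with a UMI in 39.7% against 22.99% of cells, and 26.0 against 16.3 CPM in the other barcodes. Rtp4, an interferon-induced gene, had 8.97 against 3.45 CPM (2.60, 1.90 to 3.58) and Pkia, an inhibitor of protein kinase A, 5.41 against 2.56 CPM. On the lower side, the growth factor Bmp4 had 9.03 against 13.9 CPM (0.648, 0.524 to 0.800), in 9.65% against 13.9% of cells. Gtsf1l had 3.19 against 5.72 CPM.

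A further 12 genes named by the same rule had higher levels in the barcodes that were not choroid plexus, as Rsrp1, Rtp4 and Pkia did. Nkain2, Pde4b, Sox2ot and Ptn were higher in Fit2-Mut with 62.7%, 47.8%, 53.7% and 63.6% of their Fit2-Mut UMIs in 5 cells, and the myelin gene Mal with 36.1%. In thinned cells the ratio of Sox2ot turned to 0.982. Sox2ot was seen in 9.43% of Fit2-Mut against 10.1% of Fit2-WT cells and Ptn in 5.95% against 6.95%, so fewer cells held them in Fit2-Mut. Nkain2, for example, had 26.4 CPM against 10.96 CPM in selected cells and 1716 against 1656 CPM in barcodes that were not choroid plexus. Adgrb3, Dmd, Gpc5, Lsamp, Slc1a3, Dusp1 and Crip1 were lower, and of these Adgrb3, Dmd, Gpc5, Lsamp, Slc1a3 and Dusp1 had from 39.8% to 56.9% of their Fit2-Mut UMIs in 5 cells. Slc1a3, an astrocyte glutamate transporter, had 8.17 against 13.2 CPM in selected cells and 573 against 623 CPM outside. Other-cell markers moved with the genotype too: the 5 red blood cell markers summed to 181 CPM in Fit2-Mut against 34.7 CPM in Fit2-WT and the 8 oligodendrocyte markers to 103 against 75.03 CPM, with none at 0 but 1 red blood cell marker in Fit2-WT, while microglia and macrophage markers summed to 165 against 200 CPM with 1 of 9 at 0 in each library. S100a8 and S100a9, genes of neutrophils, had 887 and 1227 UMIs in Fit2-Mut against 19 and 27 in Fit2-WT, with 99.1% and 98.8% of the Fit2-Mut UMIs in 5 cells. With cells that held any UMI of Aqp4, Gja1, Mog or Cldn5 left out, an alternative chosen after seeing the data, 147 genes in place of 225 passed the higher fold.

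**Figure D4:**
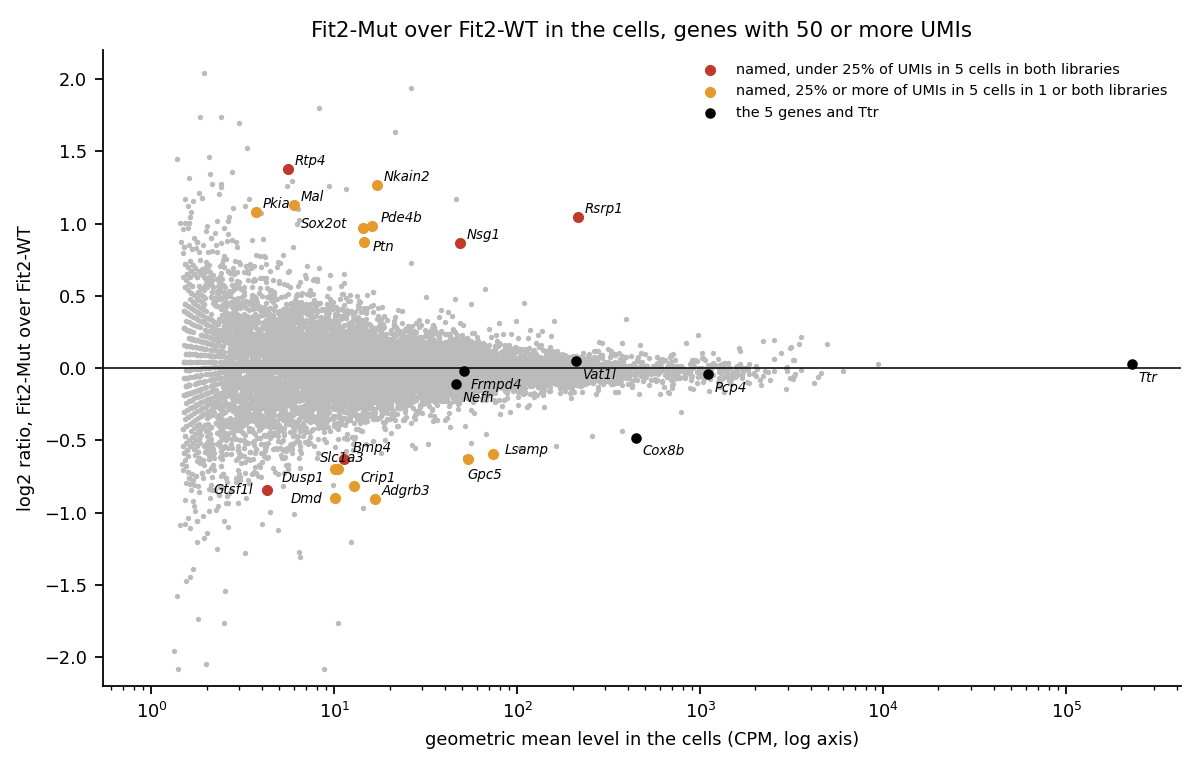
Log2 ratio of Fit2-Mut over Fit2-WT (vertical axis) against mean level in CPM on a log axis, for genes with at least 50 UMIs in the selected cells; 17 genes beyond a log2 ratio of 2.2 either way, or at 0 in 1 library, are not drawn. Red points are the 5 named genes with under 25% of their UMIs in 5 cells in both libraries, orange points those with 25% or more of their UMIs in 5 cells in a library, and black points the 5 genes that chose the cells and Ttr, among which Cox8b sits lowest.

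Gene lists moved by small amounts. All 16 measured interferon response genes were above 1, with a median log2 ratio of 0.37 against -0.00 over all 11506 genes, of which 5673 were above 1 and 5833 below. Isg15, Rtp4 and Usp18 passed 1.5-fold, and Isg15 had 47 UMIs in Fit2-Mut against 7 in Fit2-WT, with 46.8% and 71.4% of them in 5 cells. The abundant members were Ifi27, at 1267 against 1213 CPM, Bst2, which tethers budding virus to the cell, at 178 against 142 CPM (1.25, 1.19 to 1.32), and Ifitm3, which blocks viral entry, at 80.8 against 55.2 CPM (1.46, 1.34 to 1.59). In the barcodes that were not choroid plexus Bst2 had 141 against 145 CPM and Ifitm3 216 against 286 CPM, so there the direction was the opposite. Of 8 class I antigen presentation genes, 6 were above 1 and none passed the fold, with B2m at 71.3 against 65.0 CPM.

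The 13 mitochondrially encoded transcripts were all above 1, by a median of 0.17 on the log2 scale. Together they had 27313 CPM in Fit2-Mut against 24371 CPM in Fit2-WT, and 28089 against 26940 CPM outside the choroid plexus. The median mitochondrial share of a selected cell was 2.58% against 2.15%. All 13 nuclear-encoded cytochrome c oxidase subunits were below 1, by a median of -0.06, with Cox7a1 at 91.8 against 109 CPM and Cox8a at 4279 against 4463 CPM. Of 20 endoplasmic reticulum genes, 16 were above 1 (median 0.12), with Hspa5 at 887 against 784 CPM (1.13, 1.10 to 1.16) and Pdia4, a disulphide isomerase, at 110 against 87.7 CPM, and outside the choroid plexus these had 525 against 473 CPM and 82.8 against 69.0 CPM. Of 17 lipid droplet genes, 15 were below 1 (median -0.09) with none past the fold, among them Plin3, a coat protein of the droplets, at 102 against 105 CPM and Plin2 at 17.7 against 19.5 CPM.

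Transport, receptor and secretion genes had few members past the fold. Of 21 ion and water transport genes, 17 were above 1 (median 0.10) and none past the fold, with the water channel Aqp1 at 49.6 against 38.6 CPM (1.29, 1.16 to 1.43) and the sodium pump subunit Atp1b1 at 490 against 456 CPM. Of 25 nutrient and drug transporters 16 were above 1, and of 14 hormone and transmitter receptors 8 were, none past the fold. Of 19 secreted proteins, 11 were above 1 and 1 passed the fold, Lcn2, whose 69 UMIs in Fit2-Mut all lay in 5 cells or fewer. Ttr itself had 230136 against 225463 CPM. Claudin-1, encoded by the tight junction gene Cldn1, passed the fold as 1 of 18 junction genes, at 11.8 against 7.56 CPM (1.56, 1.24 to 1.97). Of 15 BMP and Wnt genes, 7 were above 1 and 8 below (median -0.04), and Bmp4 alone was past the fold. Among the others, Id1 had 85.5 against 125 CPM (0.682, 0.637 to 0.731) and Id3 135 against 196 CPM (0.690, 0.654 to 0.729). Both were lower as well in the barcodes that were not choroid plexus, at 80.6 against 126 CPM and 135 against 194 CPM. Of 17 immediate early genes 12 were below 1 (median -0.25) and 3 past the fold, though the median was 0.16 in thinned cells. Immediate early genes are known to be induced by tissue dissociation. For Atf3, at 10.2 against 19.9 CPM, 64.5% of the Fit2-Mut UMIs lay in 5 cells.

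**Figure D5:**
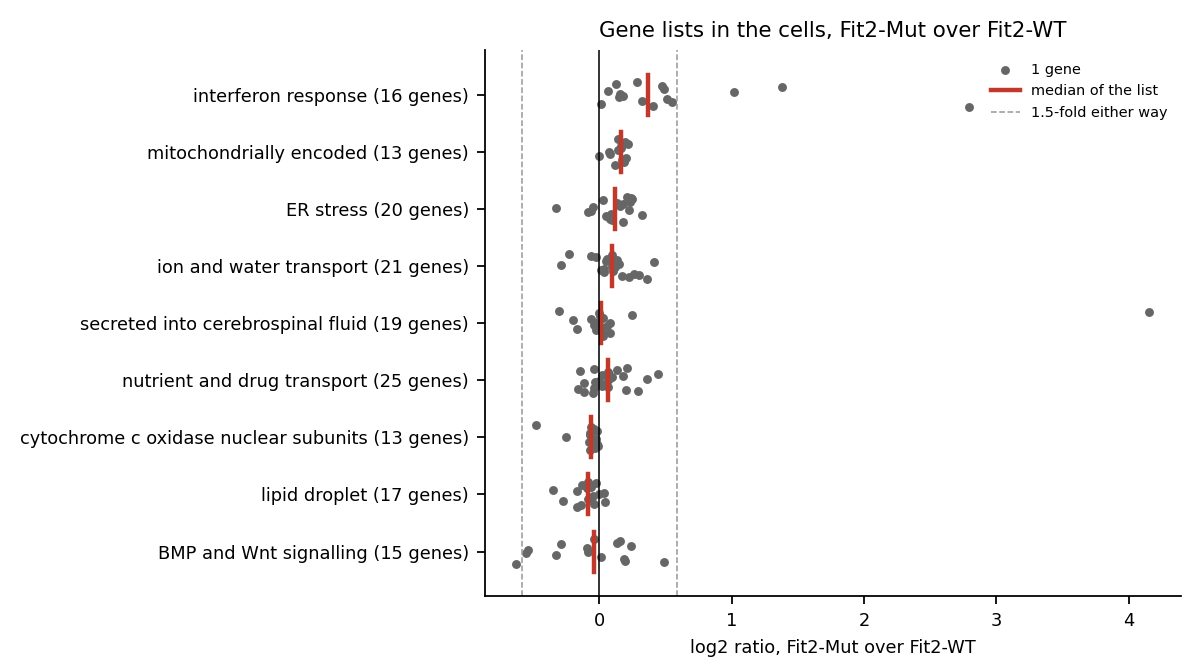
Log2 ratio of Fit2-Mut over Fit2-WT in the selected cells for each gene of 9 lists with at least 50 UMIs; points are genes, red bars list medians and dashed lines 1.5-fold either way. Interferon genes all lie to the right of 0, with Isg15 the farthest, the 13 cytochrome c oxidase subunits lie just left of 0 with Cox8b the farthest left, and Lcn2 is the single far point among the secreted proteins.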

How the data were processed

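Droplet single-cell RNA counts of whole brain were analysed, 1 library per genotype. Per the labels' protocols, brains were dissociated with an adult brain kit and libraries made with 10x 3′ v3.1 chemistry. The deposited values are whole-number UMI counts for all barcodes, which the authors did not normalise: 988339 barcodes and 63234140 UMIs in Fit2-Mut, 928670 and 52491901 in Fit2-WT. Cell Ranger is version 7.1.0 per the file headers and 7.0.0 per the submitters' processing notes, which name mm10. UMIs of a class of cells were pooled and scaled by the pooled total (CPM). A gene needed 50 UMIs, and folds of 2 (between kinds of cell) and 1.5 (between genotypes and within the selected cells) were used in place of a test. Microglia, oligodendrocyte, astrocyte and endothelial classes needed at least 8 UMIs of 4 of their markers. They also needed no UMI of chosen markers of other classes and at most 1 of the genes that chose the epithelium. The ependymal class needed at least 8 UMIs of Tmem212 and Ccdc153, with no limit on the markers of other cells. The members and lists were chosen with earlier results of these data known. Named genes were, for selected against unselected cells, the 15 highest and 15 lowest, and for the genotypes the 10 highest and 10 lowest, by the interval bound nearest to 1 among genes past 1.5-fold and seen in at least 5% of cells. Some genes that this rule names are not reported here. Genes singled out from the lists were chosen after their values were seen. Python 3.11.15, NumPy 2.4.6, SciPy 1.17.1, pandas 2.3.3, Scanpy 1.11.5 (Scrublet) and matplotlib 3.10.9 were used, with edgeR 4.0.16 for TMM scaling as an alternative only. The code was tested on simulated data.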

Additional observations from a re-analysis of the deposited data

Results flagged for a closer look

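Among gene lists with at least 5 measured genes, 5 had medians of opposite sign in the libraries when the selected cells were set against the unselected choroid plexus cells. There were 73 unselected cells in Fit2-Mut and 49 in Fit2-WT. Lists with fewer measured genes were not counted, and some of those also had opposite signs. On the log2 scale the astrocyte markers had a median of 0.76 in Fit2-Mut and -0.60 in Fit2-WT. Microglia and macrophage markers had -2.07 and 2.88, and Hox cofactors 0.98 and -0.13. BMP and Wnt genes had 0.23 and -0.17, and class I antigen presentation genes -0.97 and 0.02. The difference between the libraries was not tested in any of the 5.

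Barcodes with 10 to 100 UMIs, which lie outside the cells compared, also held the 5 genes, at 300.3 CPM in Fit2-Mut and 354 CPM in Fit2-WT, against 1768 and 1944 CPM in the selected cells.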

How the results depend on the processing

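No paired analysis was possible because each genotype has 1 library, and no replicate could be left out. The ratio of shares was 0.958 with at least 5 UMIs of the 5 genes required and 0.944 in thinned cells, where the condition was 2 UMIs. Against the unselected cells, 540 genes were higher, and 1353 with at least 2 UMIs required, 191 with 5, 125 in thinned cells, 888 and 206 with gene filters of 20 and 200 UMIs, and 2874 against cells with no UMI of the genes. The 63 lower genes became 97, 10, 1, 134, 6 and 130 under these, 40 without doublets and 119 with TMM scaling. Between genotypes, the 225 higher and 192 lower genes became 518 and 496 with a filter of 20 UMIs and 36 and 21 with 200, and 147 were higher without cells holding a UMI of Aqp4, Gja1, Mog or Cldn5, an alternative chosen after seeing the data. Between the richest and poorest 25% of cells, 572 genes were higher with Ttr left out and 476 lower at 8000 to 15000 UMIs. Values that changed direction were the immediate early median (0.16 in thinned cells), Sox2ot (0.982 in thinned cells), Pou6f1 (1.99 and 0.532 in Fit2-Mut and Fit2-WT, thinned), Malat1 (1.08 and 1.87 against cells with no UMI of the genes) and Zeb2 (0.312 and 2.28 without doublets). The fewer or more genes under a filter follow from the filter; for the rest the cause was not tested. The unselected cells held 501647 UMIs in Fit2-Mut and 329259 in Fit2-WT, which limits the precision of ratios against them.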
